A study of Mus musculus with 2 samples.

Results

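The genes described here are the numbered Gpr genes, most of them named as orphan receptors because no ligand was known when they were found, and the Adgr genes of the adhesion family of G protein-coupled receptors. Membership went by symbol: genes whose probes carry a single annotated symbol made of Gpr and a number, or starting with Adgr. This rule and the gene lists used below were set with earlier results of these data known. Adgre1, the macrophage marker known as F4/80, was left out by the same rule. This gave 85 members, 23 adhesion and 62 Gpr genes, of 19532 genes on the array, measured by 133 probes. A further 5 symbols with a letter after the number, such as Gpr137b, fell outside the rule.

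The series holds 2 two-colour Agilent arrays. On each, RNA of a mouse lung sample that was neither cultured nor treated (lung replicates 1 and 2, labelled with Cy3) was hybridised together with RNA of mouse embryonic fibroblasts (MEF, labelled with Cy5), which are fibroblast cultures derived from embryos and were here kept in serum-containing medium. Strain, age, sex and the number of animals or embryos are not given in the labels. Nor is it said whether the lung samples came from separate animals or if 1 MEF preparation served both arrays. The p-values therefore measure only the spread between these 2 arrays, which may be technical. The dyes were not swapped, so dye and sample cannot be told apart.

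G protein-coupled receptors are membrane-spanning proteins that switch on heterotrimeric G proteins when a ligand binds. Adhesion receptors carry in addition a long extracellular part that binds matrix or neighbouring cells, and many are cleaved so that a tethered peptide inside the receptor can act as its own agonist. In the lung, members of both groups are known from capillary endothelium, alveolar type 2 cells and leukocytes, and many others are known mainly from the nervous system.

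Every value below is a log2 ratio of lung over MEF, a difference between RNA pools and not a level, and members are not compared by level. Positive values are likely higher in lung. That reading rests on the series' design, which describes lung relative to MEF, and on 11 lung epithelial genes such as Sftpc and Scgb1a1, of whose values 100% were above 0. With the opposite direction, each gene given as higher would be lower and the reverse. Checked against their defining markers with this direction, all 10 fibroblast and matrix genes, Col1a1 and Twist1 among them, were lower in lung. Each gene was tested against 0 with limma, with Benjamini-Hochberg adjustment over all genes and a threshold of 0.05, and a gene is called 2-fold apart where it lay at least 1 from 0 in the same direction on both arrays. The olfactory and vomeronasal receptor genes, 1044 relatives normally used in sensory epithelia, serve as a yardstick: the central 95% of them lay between -1.39 and 1.22 on lung replicate 1, and between -1.44 and 1.24 on the other array, and this span is called the receptor range. Because only ratios were analysed here, it is not known which of them rest on a dim spot. In these tissue samples, fewer cells of a type and less RNA per cell cannot be told apart.

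The members spread widely in both directions around the same median as all genes. Their median log2 ratio was -0.21, that of all genes was also -0.21 and that of the olfactory and vomeronasal receptor genes was -0.42. At least 2-fold higher in lung on both arrays were 17 members, or 20% against a background of 17.1% of all genes, and 19 were at least 2-fold lower, or 22.4% against 15.4%. By limma 27 members were higher and 34 lower (background 32.6% and 43.6%), and 24 did not pass. With the arrays centred on those olfactory and vomeronasal genes the split turned to 39 higher and 23 lower. All 36 members that were 2-fold apart also passed, with limma's adjusted p at most 0.0317. Of the other 49, 10 were higher, 15 lower and 24 did not pass, and their mean log2 ratios ran from -1.38 for Gpr151 to 1.01 for Adgrl3. Above the receptor range on both arrays lay 16 members (background 14.6%) and below it 11 (background 8.91%).

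**Figure D1:**
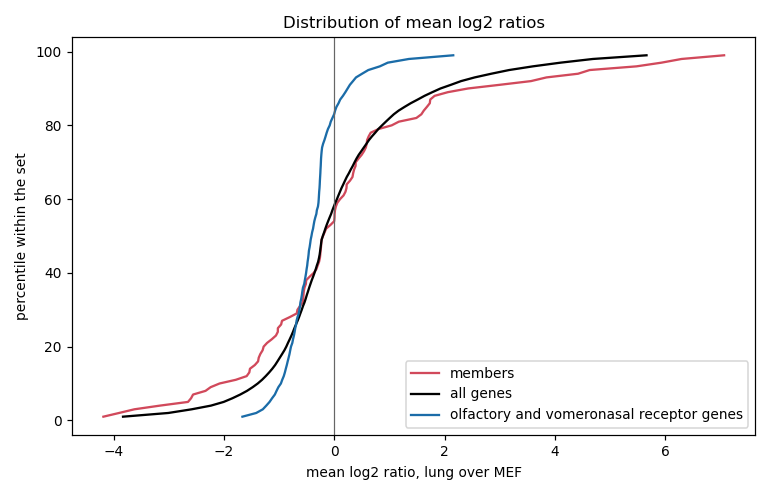
The x axis gives the mean log2 ratio of lung over MEF and the y axis the percentile within the set, for the 85 members, all 19532 genes and the 1044 olfactory and vomeronasal receptor genes. The member and all-gene lines cross their 50th percentile at about the same place, near -0.21, and the members run further out at both ends.

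The arrays gave similar values for most members. The sign was the same on both for 79 of the 85, and the median absolute difference between arrays was 0.12. In the mean of their probes, only 3 members differed by more than 1 between the arrays, although single probes of some other members differed by more than 1. Gpr141 was at 0.86 on lung replicate 1 and -0.85 on lung replicate 2, the orphan receptor gene Gpr75 was at -0.33 and -1.72, and the neural receptor gene Gpr151 was at -1.90 and -0.86. None of the 3 passed the test.

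Of the 23 adhesion receptor genes, 11 were higher and 9 lower by limma, or 47.8% and 39.1% against 32.6% and 43.6% of all genes. On both arrays 7 were 2-fold higher and 6 were 2-fold lower, or 30.4% and 26.1% against 17.1% and 15.4%, and their median was 0.03. The 7 lay above the receptor range, and 5 of the 6 lay below it, with Adgrb1 the exception.

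Adgrf5, known as GPR116, restrains surfactant secretion by alveolar type 2 cells and is also found in lung capillary endothelium. It stood at 7.09 on lung replicate 1 and 7.05 on lung replicate 2, a mean of 7.07 ± 0.03 (SD, n = 2) or 134.5-fold, which was the 49th highest of all 19532 genes (limma adjusted p = 0.00161). Adgrl4, known as ELTD1, is an endothelial member of the latrophilin group and stood beside it at 7.01 and 7.12, with a mean of 7.07 ± 0.08 and 134-fold. Both arrays thus placed these genes far outside the receptor range, with almost no spread between their ratios. Of the 10 endothelial marker genes, all were higher in lung, from 2.81 for Kdr to 7.95 for Cdh5, and of the 11 lung epithelial genes that set the direction all were higher too. The part of endothelial and epithelial cells in these ratios was not tested.

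The stretches upstream of Adgrf5 and Adgrl4, and of Gpr176 and Gpr84, the members lowest in lung, are shown because these are the members furthest apart in the comparison. Each is the 250 bases before the transcription start in RefSeq's GRCm38.p6 annotation, on the gene's own strand, 5′ to 3′. Capitals mark AGGAAG, a form of the site bound by ETS factors, and CCAAT, each on either strand. Other forms of the ETS site were not searched and are not marked. TATAAA was searched too and was not found in any of these windows.
Adgrf5, chr17:43360181-43360430, plus strand, the first of 2 listed starts: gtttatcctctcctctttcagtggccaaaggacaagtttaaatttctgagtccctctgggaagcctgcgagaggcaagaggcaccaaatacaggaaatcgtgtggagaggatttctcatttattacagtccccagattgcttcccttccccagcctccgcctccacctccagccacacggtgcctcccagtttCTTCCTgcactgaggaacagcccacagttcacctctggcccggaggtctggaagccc
Adgrl4, chr3:151437632-151437881, plus strand: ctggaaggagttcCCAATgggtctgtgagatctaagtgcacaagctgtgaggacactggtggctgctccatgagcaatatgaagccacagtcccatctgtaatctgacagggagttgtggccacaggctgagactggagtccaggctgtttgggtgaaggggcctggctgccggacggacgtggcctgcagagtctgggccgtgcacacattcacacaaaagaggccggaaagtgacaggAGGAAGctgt
Gpr176, chr2:118373420-118373669, minus strand: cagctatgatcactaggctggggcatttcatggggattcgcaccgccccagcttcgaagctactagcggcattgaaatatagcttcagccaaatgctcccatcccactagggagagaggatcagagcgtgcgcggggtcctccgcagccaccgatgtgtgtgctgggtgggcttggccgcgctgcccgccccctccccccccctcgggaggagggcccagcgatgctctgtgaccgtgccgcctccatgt
Gpr84, chr15:103310439-103310688, minus strand: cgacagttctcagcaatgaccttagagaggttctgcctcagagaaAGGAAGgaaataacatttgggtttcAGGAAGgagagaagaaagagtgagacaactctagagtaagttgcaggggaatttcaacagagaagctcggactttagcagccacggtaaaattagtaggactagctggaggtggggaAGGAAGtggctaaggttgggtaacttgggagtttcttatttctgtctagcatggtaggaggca
AGGAAG occurred 1 time upstream of Adgrf5, 1 time upstream of Adgrl4 and 3 times upstream of Gpr84, and CCAAT occurred 1 time, upstream of Adgrl4. Among the windows of 27025 genes, 29.2% held AGGAAG, 34.5% CCAAT and 13% TATAAA, and among the 66 members with a window the shares were 27.3%, 36.4% and 10.6%. The window of Gpr176 was richest in G and C, at 64%, against 46% for Gpr84 and a median of 52% over all genes.

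The other members of the Adgrf group were close to 0 in comparison. Adgrf1, at 0.75 and 0.52, and Adgrf4, at 0.77 and 0.42, were higher by less than 2-fold. Adgrf2 was at -0.19 and 0.26 and did not pass the test. Adgrf1 directly neighbours Adgrf5 among the protein-coding genes of the RefSeq annotation, and the log2 ratio of 0.63 for Adgrf1 stands against 7.07 for Adgrf5.

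The latrophilins, which bind teneurins and FLRT proteins on other cells, went different ways. Adgrl1, prominent in neurons, was lower in lung at -1.56 and -1.51, with its 4 probes between -2.19 and -1.28. Adgrl3 was higher at 0.86 and 1.16, with 6 probes from -0.50 to 2.07. Some of its probes differed between the arrays, with 1 at 1.88 and 0.13 and another at -0.36 and 1.70. Adgrl2, which directly neighbours Adgrl4, was higher at 2.63 and 1.63, but its 2 probes disagreed. The first was at 5.89 and 3.89 and the second at -0.63 and -0.62, and they are annotated to different transcript records, so the mean of 2.13 describes neither.

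The Adgre members are receptors of leukocytes, and both were above the receptor range. Adgre4, found on mouse myeloid cells, was at 5.90 and 5.96, a mean of 5.93 ± 0.05 and 61.1-fold. Adgre5, known as CD97, binds the complement regulator CD55 and was at 3.52 and 3.46, or 11.2-fold higher. Adgre5 and Adgrl1 are direct neighbours in the genome and lay on opposite sides of 0. All 6 neutrophil, all 9 T and NK cell and all 5 B cell marker genes were higher in lung, from 0.59 for Cd79a to 9.88 for S100a8. Of 9 macrophage and monocyte genes 4 were higher and 5 lower, among them Chil3 at 7.72 and Adgre1 at -2.0. The part of leukocytes in the receptor ratios was not tested.

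In the Adgrg group, 2 neighbouring genes were high and 1 gene was far below 0. Adgrg1, known as GPR56, a receptor for type III collagen that is also carried by cytotoxic lymphocytes, was at 4.63 and 4.72 and 25.6-fold higher in lung. Adgrg3, known as GPR97 and found on granulocytes, was at 3.59 and 3.94 and 13.6-fold higher, with its 2 probes at 3.95 and 3.58. In contrast, Adgrg2, known as HE6 from the epididymis, was at -3.89 and -3.77, a mean of -3.83 ± 0.08 and 14.2-fold lower. Adgrg6, which acts in Schwann cell myelination, was lower by less than 2-fold at -0.52 and -0.51, as was Adgrg7 at -0.60 and -0.53. With the arrays centred on the olfactory and vomeronasal genes neither passed, at -0.097 for Adgrg6 and -0.15 for Adgrg7.

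The Adgra and Adgrb groups lay at or below 0. Adgra2, known as GPR124, is a co-receptor for Wnt7 ligands in brain endothelium and was 4.76-fold lower in lung, at -2.28 and -2.22. Adgra1 was at -2.86 and -2.34, and Adgra3 was at 0.00 and 0.01 and did not pass. All 3 Adgrb genes, the brain-specific angiogenesis inhibitors, were lower: Adgrb2 at -1.89 and -1.81, Adgrb1 at -1.37 and -1.33, and Adgrb3 at -0.85 and -0.51. Adgrb1 is known as an engulfment receptor for phosphatidylserine on apoptotic cells. The 2 probes of Adgrb2 were at -2.98 and -0.72, so their size but not their direction differed. Adgrb3 was no longer called with the arrays centred on the olfactory and vomeronasal genes (-0.27, limma adjusted p = 0.166).

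The probes of Adgrd1 and Adgrv1 pointed in both directions. Adgrd1 had a mean of 0.52 on each array and was higher by the test, but its 3 probes were at 3.09, -0.44 and -1.07. Adgrv1, the very large adhesion receptor of hair cells whose loss causes Usher syndrome, had 8 probes from -0.96 to 1.53, and its mean of -0.14 did not pass. Neither gene can be given a direction from these probes.

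**Figure D2:**
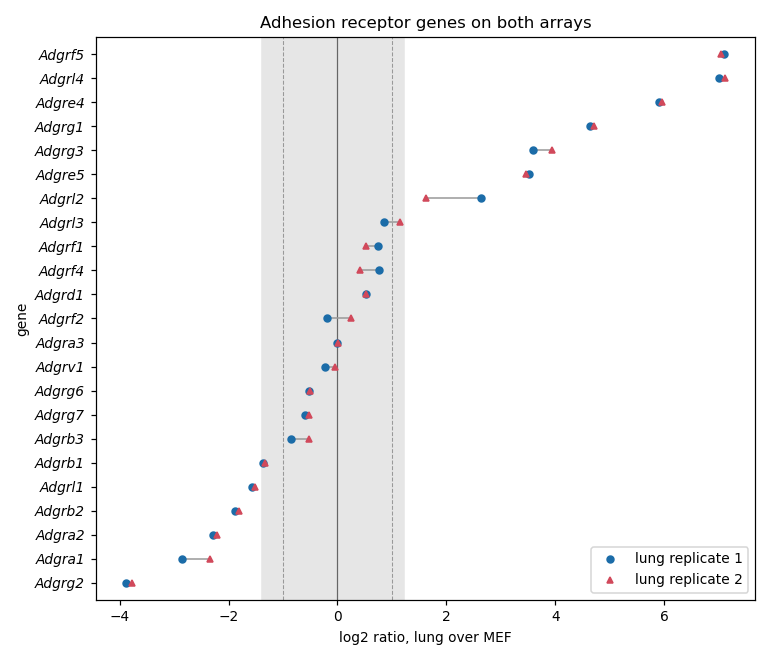
Each line is an adhesion receptor gene and the x axis is the log2 ratio of lung over MEF, with a circle for lung replicate 1 and a triangle for lung replicate 2. The shaded band is the receptor range shared by both arrays (-1.39 to 1.22) and the dashed lines mark 2-fold. Adgrf5 and Adgrl4 lie at 7.07 and Adgrg2 lies at -3.83, and the 2 symbols of a gene are furthest apart for Adgrl2 and Adgra1.

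Among the 62 Gpr genes, 16 were higher in lung and 25 lower by limma, or 25.8% and 40.3% against 32.6% and 43.6% of all genes, and 21 did not pass. At least 2-fold higher were 10 of them, or 16.1% against 17.1% of all genes. At least 2-fold lower were 13, or 21% against 15.4%, and the median of the Gpr genes was -0.24. Gpr182, an atypical receptor of endothelium that takes up chemokines, was furthest above 0. It stood at 5.97 and 5.90, a mean of 5.93 ± 0.05 and 61-fold, with limma's adjusted p = 0.00161. Its 2 probes were at 7.74 and 4.12, both far above the receptor range.

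Of the 13 measured receptors on the leukocyte list, 7 were higher and 2 lower (32.6% and 43.6% of all genes), with 4 not passing and a median of 0.59. Gpr171, known from lymphoid cells, was at 4.69 and 4.20 and 21.8-fold higher in lung. Gpr183, known as EBI2, guides B cells and dendritic cells along gradients of an oxysterol and was at 1.51 and 1.56. Gpr18, found on lymphocytes and a direct neighbour of Gpr183, was at 1.84 and 1.35. Gpr160 was at 1.73 on both arrays. Gpr34, a receptor for lysophosphatidylserine on myeloid cells, was at 1.06 and 1.25, and was the single 2-fold higher member not above the receptor range on both arrays. The related Gpr174 was higher by less than 2-fold, at 0.52 and 0.85, and so was Gpr65, at 0.54 and 0.59. The 2 probes of Gpr174 were at -0.105 and 1.47, on opposite sides of 0.

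The 2 lower members of that list were Gpr84 and Gpr15. Gpr84, a receptor for medium-chain fatty acids known from activated macrophages and neutrophils, was at -4.13 and -4.01, a mean of -4.07 ± 0.09 and 16.8-fold lower in lung. Gpr15, which guides T cells to the colon, was at -1.19 and -2.01. Both samples put Gpr84 far below the receptor range, while Gpr15 lay inside it on lung replicate 1. The 20 neutrophil, T, NK and B cell markers were all higher in lung. Of the 9 macrophage and monocyte markers 5 were lower, among them C1qa at -2.95 and Cx3cr1 at -1.69. The other 4 were higher, among them Chil3 at 7.72 and Ccr2 at 5.89. The part of these cells in the Gpr84 ratio was not tested.

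Receptors for protons and for lipids or metabolites showed smaller ratios apart from Gpr84. Of the 3 proton-sensing members, Gpr65 passed, while Gpr4, an endothelial acid sensor, was at 0.34 and 0.06 and Gpr132 at -0.38 and -0.14. The 2 probes of Gpr4 were at 1.10 and -0.70, in opposite directions. Of the 8 lipid and metabolite receptors 5 were higher and 1, Gpr84, was lower, against 32.6% and 43.6% of all genes. Gpr18, Gpr34, Gpr84, Gpr174 and Gpr183 are on the leukocyte list as well. Gpr119, a receptor for oleoylethanolamide known from the pancreas and gut, was higher at 1.92 and 1.73. Gpr35 (0.60 and 0.18) and Gpr55 (0.24 and 0.69) did not pass.

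Other Gpr genes at least 2-fold higher in lung were Gpr135, Gpr146 and Gpr155. The orphan receptor gene Gpr135 was at 2.48 and 2.75. Gpr146, known for its effect on blood cholesterol through the liver, was at 1.76 and 1.70. Gpr155, a cholesterol sensor of the lysosome rather than a receptor of the cell surface, had a mean of 1.64, but only 1 of its 3 probes was high, at 4.87 and 4.92, and the others averaged 0.30 and -0.27.

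Among receptors known mainly from the nervous system, more were called lower than higher in lung, by a margin that depended on the centring. Of the 21 measured genes on that list 12 were lower, 2 higher and 7 did not pass, and their median was -0.55. At least 2-fold lower were 5 of them, with none 2-fold higher, against 15.4% and 17.1% of all genes. Over all genes 43.6% were lower and 32.6% higher by the same test. With the arrays centred on the olfactory and vomeronasal genes Gpr19, Gpr62 and Gpr101, all called lower, were above 0. Gpr19, Gpr62, Gpr26 and Gpr50 no longer passed there, and Gpr37, Gpr45 and Gpr101 were called higher. The excess of lower over higher calls on this list was thus smaller with that centring. Of 7 neuron and glia marker genes 5 were lower and 1 higher, with Mbp at 2.01 and Gfap at -4.20, and their part in these ratios was not tested.

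Gpr176, a receptor of the brain's circadian pacemaker, had the lowest ratio of all 85 members. It was at -4.72 on lung replicate 1 and -4.90 on lung replicate 2, a mean of -4.81 ± 0.13 and 28-fold lower in lung, the 97th lowest of all genes (limma adjusted p = 0.00164). The 3 closely related receptors known as SREB, for super conserved receptors expressed in brain, were all lower. Gpr85 was at -3.46 and -3.42 and 10.9-fold lower, Gpr27 was at -2.54 and -2.58 and 5.89-fold lower, and Gpr173 was at -1.62 and -1.44 with its 3 probes from -2.71 to -0.54. Gpr162 was lower at -1.37 and -1.40.

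The remaining Gpr genes at least 2-fold lower were receptors of varied or unknown function. Gpr142, a receptor for tryptophan in pancreatic islets, was at -2.61 and -2.73 and 6.36-fold lower. Gpr20 was at -1.93 and -2.55. Gpr1, a receptor for the adipokine chemerin, was at -1.20 and -1.18, and the zinc-activated Gpr39 was at -1.15 and -1.0. The orphan receptor genes Gpr153, at -1.33 and -1.22, and Gpr165, at -1.41 and -1.19, were lower too. With the arrays centred on the olfactory and vomeronasal genes, Gpr1 (-0.774), Gpr39 (-0.662), Gpr153 (-0.864) and Gpr165 (-0.885) were lower by less than 2-fold. So were Gpr162 (-0.971) and Adgrb1 (-0.934). In all, 8 of the 19 members at least 2-fold lower were not below the receptor range on both arrays.

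Atypical membrane proteins that carry a Gpr name and that, in most cases, sit on inner membranes lay within 1 of 0, Gpr155 aside. The Golgi proteins Gpr108, at 0.35 on both arrays, and Gpr89, at 0.35 and 0.30, were higher by less than 2-fold. Gpr137, at -0.91 and -0.99, and Gpr180, at -0.66 and -0.70, were lower. Gpr107 had 5 probes from -1.17 to 1.58 and did not pass. The Gpr3 group, whose members keep Gs active without a ligand, was close to 0 as well: Gpr3 was at -0.36 and -0.13, Gpr12 at -0.14 and -0.34, and Gpr6, which passed, at -0.16 and -0.25, although it turned positive (0.21) with the arrays centred on the olfactory and vomeronasal genes. Gpr161, the ciliary receptor that restrains hedgehog signalling, was at -0.05 and 0.03.

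**Figure D3:**
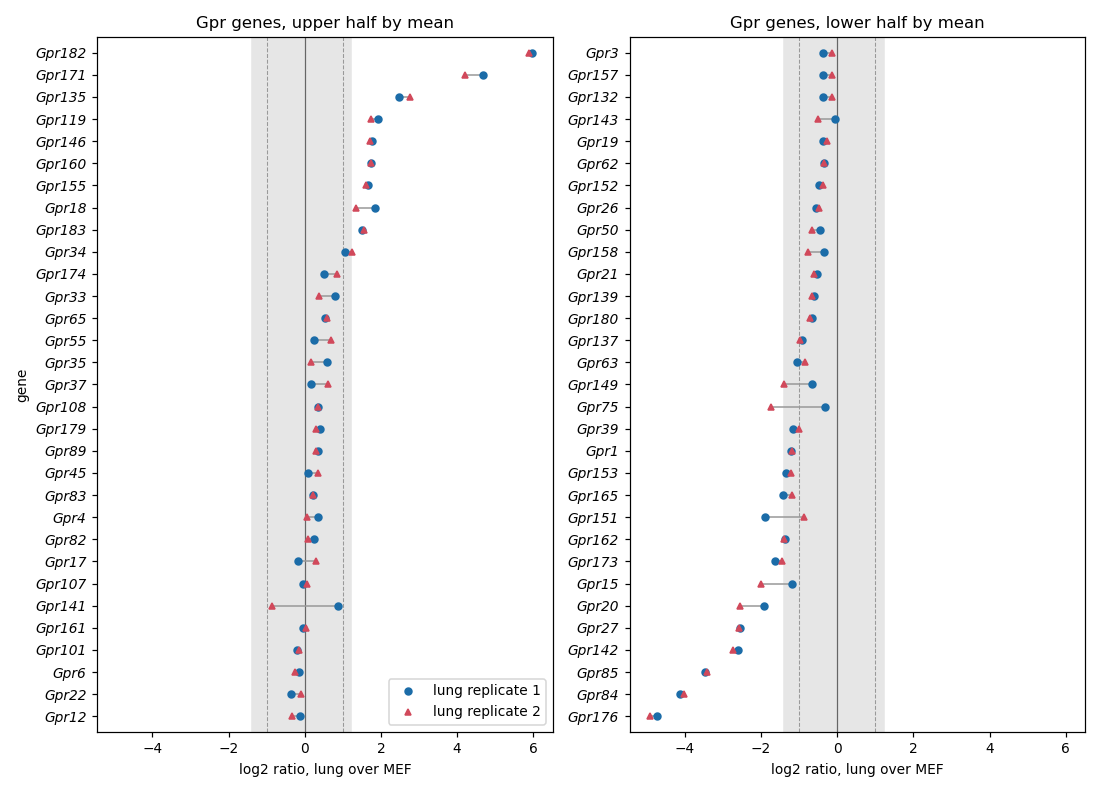
Each line is a Gpr gene and the x axis is lung over MEF as a log2 ratio, with circles for lung replicate 1, triangles for lung replicate 2, the shared receptor range (-1.39 to 1.22) shaded and 2-fold marked by dashed lines. The left panel runs from Gpr182 at 5.93 downward and the right panel ends with Gpr176 at -4.81, while most genes lie inside the band.

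How far a gene's mean can be trusted depends on its probes. A single probe measured 56 members and several measured 29, and for 14 of these the probes lay on both sides of 0. For 2 genes, Adgrd1 and Gpr107, probes were at least 2-fold apart from 0 both ways. Among the members at least 2-fold apart, the disagreements were those of Adgrl2 and Gpr155 described above. A single probe measured 13 of the 17 members at least 2-fold higher and 15 of the 19 at least 2-fold lower. Adgrf5, Adgrl4, Gpr176 and Gpr84 are among them. For all of these, agreement between the arrays is the sole check of the ratios.

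**Figure D4:**
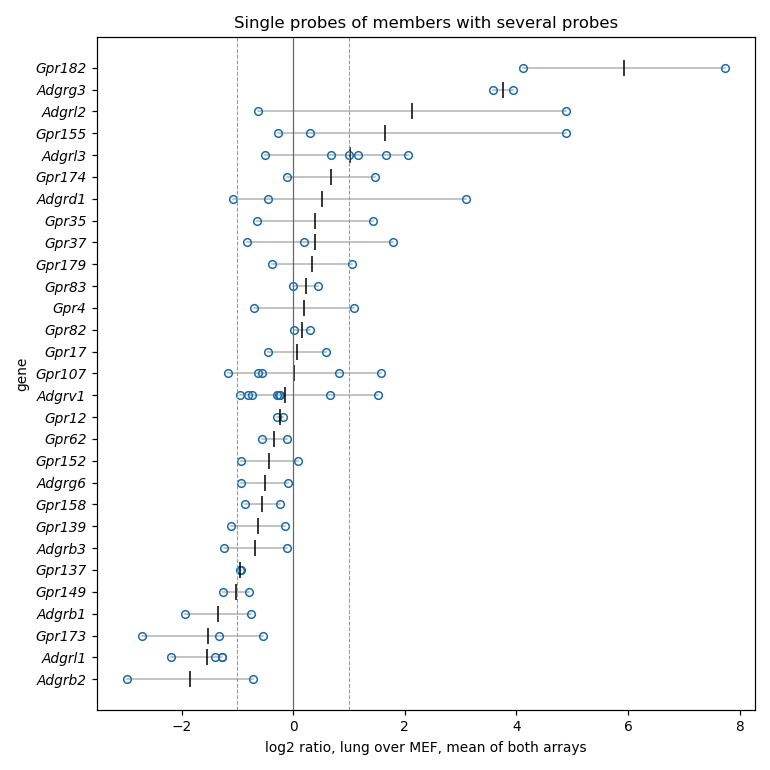
Each line is a member with several probes, circles are single probes (log2 ratio of lung over MEF, averaged over both arrays), the short vertical mark is the gene's mean and dashed lines mark 2-fold. The Gpr182 probes lie at 4.12 and 7.74, whereas those of Adgrl2 lie at 4.89 and -0.63 and those of Gpr155 from -0.27 to 4.89.

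The receptors act through G proteins, kinases, arrestins and RGS proteins, and 100 such genes, ligands and further receptors were measured. By limma 37 were higher in lung, 51 lower and 12 did not pass, against 32.6% higher and 43.6% lower over all genes. With the arrays centred on the olfactory and vomeronasal genes the split turned to 46 higher and 36 lower. Of 15 alpha subunit genes, 4 were higher and 9 lower (median -0.51). Gna14, a Gq-type subunit, was at 2.55, Gna12 at -1.99 and Gnat2 at -1.32. Of 17 beta and gamma subunit genes, 5 were higher and 11 lower (median -0.60), with Gng7 at -2.39, Gng11 at 2.02 and Gnb5 at -1.87.

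Kinases and arrestins, which shut receptors off, split evenly, with 4 of 9 higher and 4 lower. The 3 furthest from 0 were all higher: the receptor kinase genes Grk5 (2.37) and Grk3 (2.22) and the beta-arrestin gene Arrb1 (1.92). Of 20 genes for RGS proteins, which speed up the shut-off of G proteins, 11 were higher and 8 lower (median 0.81). Rgs9 was at 3.72, Rgs16 at -3.18 and Rgs22 at 2.90, so members of this list lay far out on both sides.

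Genes for ligands lay on both sides of 0. Of 21 genes for ligands of adhesion receptors 6 were higher and 10 lower (median -0.44). Sftpd, a reported ligand of Adgrf5, was at 7.70, but it is one of the genes that set the direction. Tenm3, a teneurin ligand of latrophilins, was at -5.47, and Col3a1, the ligand of Adgrg1, was at -3.42. Cd55, the ligand of Adgre5, was at 2.01 and was picked after its value was seen. Of 10 genes for ligands of Gpr receptors or the enzymes that make or break them, 3 were higher and 6 lower (median -0.91). Rarres2, which encodes chemerin, was at 4.75, against -1.19 for its receptor gene Gpr1. Ch25h, the enzyme that starts synthesis of the Gpr183 oxysterol ligand, was at -2.49. Penk, which is on the list but encodes an opioid precursor with no receptor named among the members here, was at -2.21. Among 8 adhesion and class C receptor genes outside the naming rule, 4 were higher and 3 lower. They included Celsr1 at 4.79, an adhesion receptor of planar cell polarity, the lung epithelial gene Gprc5a at 4.42 and Gprc5c at -1.92.

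**Figure D5:**
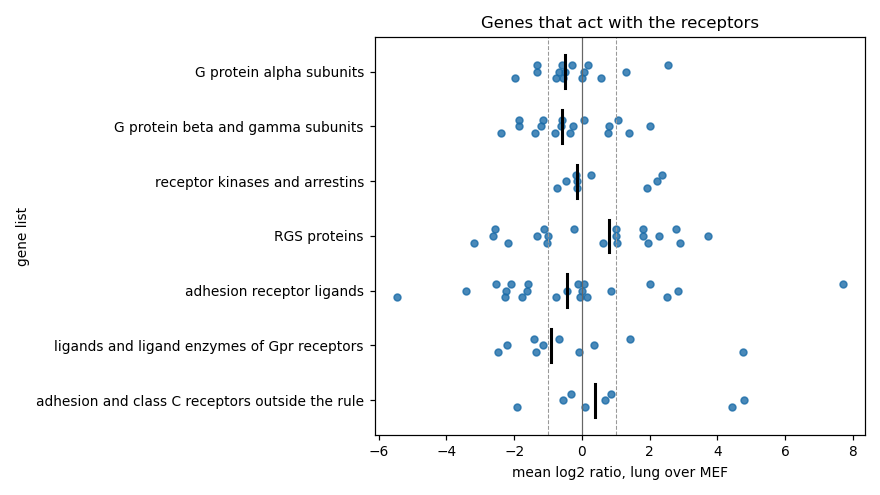
Each circle is a gene of the named list, placed by its mean log2 ratio of lung over MEF on the x axis, and the vertical bar is the list's median. Medians run from -0.91 for ligands of Gpr receptors to 0.81 for RGS proteins, and genes of every list lie on both sides of 0.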

How the data were processed

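Two-colour Agilent arrays of 2 lung samples, each against MEF RNA, were analysed. The authors deposited 1 log ratio per probe and array, produced with Agilent Feature Extraction per the submitters' processing notes. Version, background handling and dye correction were not given in the sources used here. Base, centring and direction are not stated. The deposited values reach 10.1 in size, too wide for base-10 ratios, and were read as log2, although natural logarithms would also be possible and would give larger folds. Medians over all 41174 probes were -0.28 (lung replicate 1) and -0.14 (lung replicate 2), so 0 is not the centre of either array. The number of arrays limits the precision.

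Probes were named through the platform annotation, with symbols checked against RefSeq by Entrez identifier: 32664 probes carried 1 symbol, 45 several and 8465 none. Probes were averaged per gene, with no filter on values. An intercept-only fit in limma 3.58.1 (R 4.3.3) with eBayes, two-sided, tested each gene against 0. MEF RNA was present only as reference. Because the number of MEF preparations is not given, it is not known whether the spread of MEF cultures enters the ratios. Residual degrees of freedom numbered 1 per gene, and moderation added 1.21. The script was tested on simulated data. A correlation first required of that test was replaced by checks of unbiased sizes, null p-values and signs. Plots and lists used Python 3.11.15. Genes named are all members at least 2-fold apart on both arrays, every adhesion member, and the 3 members furthest from 0 of role and partner lists. Others were picked after their values were seen. Members and lists were chosen with earlier results of these data known.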

Additional observations from a re-analysis of the deposited data

How the results depend on the processing

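Most values kept their direction under the alternatives run. Their side of the threshold depended on the test. Of the 61 members called in the main setting, 36 were no longer called without moderation. Tested against a 2-fold change, 31 of the 61 were no longer called. Under the other alternatives most members kept their side. The test changed the number of calls. Without moderation 12 members were higher and 13 lower, with 15 and 23 of the partner genes, and tested against a 2-fold change 14 members were higher and 16 lower, with 21 and 24 partner genes. Fewer degrees of freedom and a stricter null account for these by construction. Centring each array on its median moved the members' median to -0.024, and centring on the olfactory and vomeronasal receptor genes turned it to 0.21 and left 12 members 2-fold lower on both arrays. With values taken as natural logarithms the median was -0.30, and with the median of the probes it was -0.25. Without either replicate the median ran from -0.19 to -0.14, the count at least 2-fold higher from 17 to 18 and that at least 2-fold lower was 21, each on 1 array and with no test. Genes that turned, and passed the test in the main setting, the alternative or both, were Gpr101 (0.009 with median centring and 0.24 with receptor centring), Gpr6 (0.21), Gpr161 (0.41), Gpr19 (0.10) and Gpr62 (0.076) with receptor centring, Adgrd1 (-0.44) and Gpr107 (-0.51) with the median of the probes, and Adgrv1 (1.53) with the probe furthest from 0. No symbol changed on updating. Each ratio sets a lung sample against the MEF RNA on the same array, so lung and MEF were paired by array in every setting.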

Other observations

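Genes with a lettered Gpr symbol, which the naming rule leaves out, held 1 gene at least 2-fold apart. Gpr141b was higher in lung at 2.5 and 2.05 (limma adjusted p = 0.00629), while its namesake Gpr141 was at 0.86 and -0.85. Gpr37l1, a receptor of astrocytes, was lower at -0.56 and -0.58, and Gpr31b was lower at -0.62 on both arrays. Gpr137b was higher at 0.21 and 0.28, and Gpr137c was at -0.26 and -0.66 and did not pass.

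Several members lie directly beside another member among the protein-coding genes of the RefSeq annotation, and neighbours had both like and unlike ratios. Adgrg1 and Adgrg3 were at 4.68 and 3.76, and Gpr18 and Gpr183 at 1.59 and 1.53. The X-linked Gpr34 and Gpr82 were at 1.15 and 0.16, Adgrf4 and Adgrf2 at 0.59 and 0.03, and Adgre5 and Adgrl1 at 3.49 and -1.54.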
